A study of Mus musculus with 43 samples.

Results

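EKLF occupancy was examined at 10 genes that control the G1 phase of the cell cycle: the CDK inhibitors Cdkn1a, Cdkn1b, Cdkn1c, Cdkn2c and Cdkn2d, the D-type cyclins Ccnd2 and Ccnd3, and the kinases Cdk2, Cdk4 and Cdk6. They were chosen by name and by role, and all 10 were found among the 21521 protein-coding genes of the RefSeq table used here. EKLF, encoded by Klf1, is an erythroid zinc-finger transcription factor, and its binding was mapped by chromatin immunoprecipitation (ChIP) with the antibody 7B2a in fetal liver at day E13.5 of gestation. One group was wild type from the Nan strain (WT), and the other was Nan/+, heterozygous for the Nan allele of Klf1, which alters a zinc finger of EKLF. Nan/+ livers carry a normal Klf1 allele as well, and the lists do not separate the products of the alleles. Livers came from littermates, the labels call the cells primary erythroid, and no sorting step was described in the sources used here. The authors called regions once per genotype, on 3 ChIP libraries together, with 263040576 tags behind the WT list and 258773474 behind the Nan/+ list. The lists hold positions and widths without a strength per region or a value per replicate, so no spread between replicates exists and no difference between the genotypes could be tested. A position absent from a list may have missed the threshold by little.

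D-type cyclins bind CDK4 and CDK6 at the start of G1, and these complexes phosphorylate the retinoblastoma proteins and free E2F factors, after which CDK2 with cyclin E carries the cell into S phase. INK4 inhibitors, here p18 (Cdkn2c) and p19 (Cdkn2d), bind CDK4 and CDK6, whereas CIP/KIP inhibitors, p21 (Cdkn1a), p27 (Cdkn1b) and p57 (Cdkn1c), act mainly on CDK2 complexes. Red cell precursors divide rapidly and then leave the cycle before losing the nucleus, and cyclin D3, CDK6 and p27 are known regulators of their number of divisions and size.

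In the WT list 6 of the 10 genes had an EKLF region, meaning a region whose centre lay in the gene body or within 10 kb of either end, against 33.5% of all protein-coding genes. In the Nan/+ list 7 of the 10 had one, against 37.5%. Cdkn1a, Cdkn1b, Cdkn2d and Ccnd3 had regions in both lists (4 of 10, against 23.5% of all genes), and in each of these 4 genes a WT region overlapped a Nan/+ region by at least 1 bp, which held for 13.3% of all genes. Cdkn2c and Cdk2 had regions in WT alone (2 of 10, against 10.1%), and Cdkn1c, Ccnd2 and Cdk6 in Nan/+ alone (3 of 10, against 14.1%). Cdk4 had no region in either list (1 of 10, against 52.4%). These shares describe 10 hand-picked genes and were not tested.

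**Figure D1:**
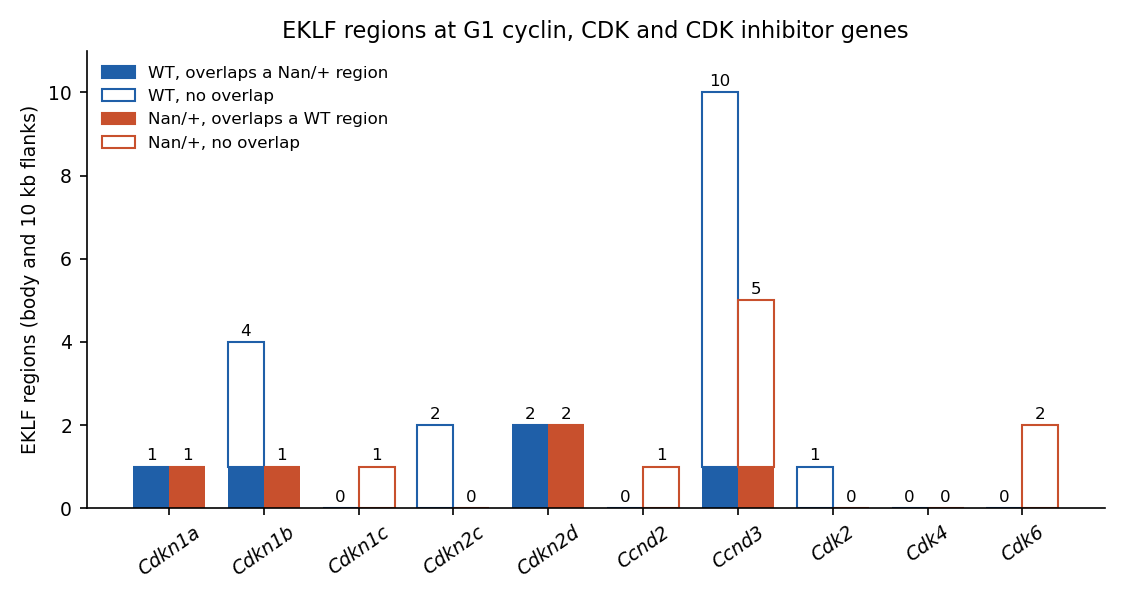
Number of EKLF regions at each of the 10 genes (y axis, regions with their centre in the gene body or within 10 kb) in the WT list (blue) and the Nan/+ list (red), with the filled part of a bar showing regions that overlap a region of the other list. Ccnd3 has the most in both lists, 10 and 5, Cdkn1a and Cdkn2d have filled bars alone at 1 and 2 in each list, and Cdk4 has 0 in both.

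Regions were next placed against annotated starts of transcription. Of the 10 genes, 8 have a start in the RefSeq promoter table (Cdkn1c and Ccnd2 have no entry), and a WT region lay over a start window, 250 bases before to 50 after a start, in 6 of these 8: Cdkn1a, Cdkn1b, Cdkn2c, Cdkn2d, Ccnd3 and Cdk2. Over all 17274 protein-coding genes with an entry the share was 20.4%. A Nan/+ region lay over a start window in 3 of the 8, Cdkn1a, Cdkn1b and Cdkn2d, against 13.0% of all such genes. All 3 are CDK inhibitors, as are 4 of the 8 genes with an entry. At Cdkn2c, Ccnd3 and Cdk2 the region over the start was in the WT list alone. The share of all genes with a start reached in WT alone was not counted, so these 3 have no background to be read against.

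The 250 bases before these starts are printed, first the 3 start windows that regions of both lists reach, then the 3 reached in WT alone, then Cdk4 as a window reached in neither. Regions cover some windows in part. WT regions cover 132 of the 250 bases at Cdkn1a, 116 at Cdkn1b and 121 at Ccnd3, and the Nan/+ region at Cdkn1a covers 221. Windows called under a region below are counted whole. Lockd, the start of a non-coding RNA next to Cdkn1b that also lay under a WT region, comes last. Sequences are from RefSeq on GRCm38.p6, the assembly that mm10 renders, 5′ to 3′ along the strand of the gene. Capitals mark matches to CCNCNCCC, a loose form of the CACCC-box element that EKLF binds, or to its reverse complement GGGNGNGG, with overlapping matches run together.
Cdkn1a, the start inside the gene, chr17:29093519-29093768, plus strand: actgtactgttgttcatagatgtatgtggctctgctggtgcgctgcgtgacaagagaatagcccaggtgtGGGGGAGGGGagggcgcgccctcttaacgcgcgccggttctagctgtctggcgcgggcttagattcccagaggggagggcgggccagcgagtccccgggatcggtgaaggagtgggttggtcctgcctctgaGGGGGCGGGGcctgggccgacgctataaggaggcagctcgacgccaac
Cdkn1b, chr6:134920151-134920400, plus strand: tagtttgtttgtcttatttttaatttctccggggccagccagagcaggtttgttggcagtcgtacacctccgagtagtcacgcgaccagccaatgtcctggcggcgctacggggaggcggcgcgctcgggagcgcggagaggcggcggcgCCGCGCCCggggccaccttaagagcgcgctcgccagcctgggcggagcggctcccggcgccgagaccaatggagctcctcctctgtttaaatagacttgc
Cdkn2d, chr9:21291210-21291459, minus strand: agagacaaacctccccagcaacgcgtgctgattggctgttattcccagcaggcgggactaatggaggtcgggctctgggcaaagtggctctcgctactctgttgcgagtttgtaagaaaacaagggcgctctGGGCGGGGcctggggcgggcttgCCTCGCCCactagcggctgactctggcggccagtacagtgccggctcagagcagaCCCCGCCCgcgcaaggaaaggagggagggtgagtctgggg
Cdkn2c, the upstream start, chr4:109666757-109667006, minus strand: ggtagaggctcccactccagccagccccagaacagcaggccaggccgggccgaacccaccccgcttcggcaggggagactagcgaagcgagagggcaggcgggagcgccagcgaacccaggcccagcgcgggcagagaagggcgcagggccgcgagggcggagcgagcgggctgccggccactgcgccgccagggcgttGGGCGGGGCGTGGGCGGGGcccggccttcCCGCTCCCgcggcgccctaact
Cdk2, chr10:128705052-128705301, minus strand: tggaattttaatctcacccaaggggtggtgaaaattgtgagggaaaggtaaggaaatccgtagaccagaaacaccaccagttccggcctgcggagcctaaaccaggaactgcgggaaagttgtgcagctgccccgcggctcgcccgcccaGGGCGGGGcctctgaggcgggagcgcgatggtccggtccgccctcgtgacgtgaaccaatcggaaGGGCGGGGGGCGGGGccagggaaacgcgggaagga
Ccnd3, the start near the far end of the gene, chr17:47593217-47593466, plus strand: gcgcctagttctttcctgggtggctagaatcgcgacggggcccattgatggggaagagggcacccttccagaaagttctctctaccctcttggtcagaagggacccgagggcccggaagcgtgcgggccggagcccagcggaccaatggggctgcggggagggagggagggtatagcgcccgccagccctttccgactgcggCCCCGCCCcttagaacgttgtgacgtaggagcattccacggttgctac
Cdk4, chr10:127063285-127063534, plus strand: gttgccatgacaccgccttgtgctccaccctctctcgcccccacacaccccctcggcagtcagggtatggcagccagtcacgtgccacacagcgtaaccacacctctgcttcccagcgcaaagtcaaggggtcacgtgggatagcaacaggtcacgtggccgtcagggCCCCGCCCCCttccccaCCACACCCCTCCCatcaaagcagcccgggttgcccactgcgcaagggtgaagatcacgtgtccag
Lockd, chr6:134928842-134929091, plus strand: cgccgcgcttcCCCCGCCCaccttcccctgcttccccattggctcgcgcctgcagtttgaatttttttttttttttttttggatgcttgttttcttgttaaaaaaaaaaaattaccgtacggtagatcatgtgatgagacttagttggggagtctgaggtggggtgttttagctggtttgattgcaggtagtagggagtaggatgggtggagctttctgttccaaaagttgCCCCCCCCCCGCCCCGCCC

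All 6 start windows under a WT region held a match to CCNCNCCC on either strand, as did 10 of the 11 windows of the members. The share over 32585 windows of the same length was 46.2%, and it was 71.4% among the 4494 windows under a WT region anywhere in the genome. The form with G in the centre, CCNCGCCC, was in 6 of the 6 windows under a WT region and in 2 of the 5 others, against 22.0% of all windows and 50.0% of those under a WT region. The form with A there, CCNCACCC, which contains the CACCC core, was in 0 of the 6 and in 2 of the 5 others, those of Cdk4 and of the upstream start of Cdkn1a, against 14.9% of all windows and 18.4% of those under a WT region. The shorter CACCC was in 4 of the 6 and in 5 of the 5 others, against 52.1% of all windows and 57.9% of those under a WT region. AGATAA, a form of the GATA element, was in 0 of the 11, against 10.0% of all windows. CCNCACCC and CCNCGCCC are each contained in CCNCNCCC, and CCNCACCC also holds CACCC, so these counts overlap.

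The form CCNCGCCC was in 3 of the 3 windows reached in both lists and in 3 of the 3 reached in WT alone. CACCC was in 1 of the 3 reached in both lists, with 1 match, and in 3 of the 3 reached in WT alone, with 5 matches. This difference rests on 6 windows and was not tested. Genome-wide, CACCC was in 57.9% of windows under a WT region and in 56.1% of windows under a Nan/+ region. The 2 CACCC matches in the Ccnd3 window lay outside its WT region. Cdkn1b had 1 match to CCNCNCCC, CCGCGCCC, 100 to 93 bases before its start, and both lists covered it. Ccnd3 had 1 match, CCCCGCCC, 48 to 41 bases before the start, and it lay in a WT region alone. Cdkn2c and Cdk2 had 4 matches each, all under WT regions without a Nan/+ partner, while Cdkn2d had 3, all under regions of both lists. The window of Cdk4 held 4 matches and no region. A match is a string of letters in this window and does not show that EKLF binds it.

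Among the CIP/KIP inhibitors, Cdkn1a (chr17:29090979-29100722), whose product p21 arrests the cycle downstream of p53, had 1 region in each list. Both lay at the internal start of the gene, 2.79 kb from the upstream one, and neither list had a region at the upstream start. The WT region, chr17:29093637-29093977, was 341 bp wide and spanned that start. The Nan/+ region, chr17:29093540-29093760, was 221 bp wide, ended 9 bp short of the start and shared 124 bp with the WT region. The 2 matches nearest the start in the printed window lay under both regions, and the other 2 lay under the Nan/+ region alone.

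Cdkn1b (chr6:134920401-134925525), whose product p27 holds CDK2 complexes inactive as cells leave the cycle, had 4 WT regions and 1 Nan/+ region. At least 4 WT regions were found at 579 of the 21521 genes. The single Nan/+ region, chr6:134919781-134920993, was the widest Nan/+ region at any of the 10 genes at 1213 bp and contained the whole WT region over the start, chr6:134920285-134920836, of 552 bp. The other 3 WT regions had no Nan/+ partner. One was 158 bp wide and lay upstream (chr6:134917299-134917456), and one of 542 bp lay inside the gene (chr6:134921533-134922074), 539 bp beyond the edge of the Nan/+ region. The last, chr6:134928710-134929272, of 563 bp, had its centre 3.47 kb beyond the far end of Cdkn1b and covered the start of Lockd (chr6:134929092-134951718). Lockd is a long non-coding RNA gene whose 5′ part has been described in erythroid cells as an enhancer of Cdkn1b. Its printed window has 6 matches to CCNCNCCC. All but the match farthest from the Lockd start run together, 19 to 1 bases before that start, so they are not separate elements. The nearest Nan/+ region to this WT region was the one at the Cdkn1b start, 7.72 kb away.

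Cdkn1c (chr7:143458339-143461059), an imprinted gene whose product p57 restrains CDK2 complexes, had 0 WT regions and 1 Nan/+ region. That region, chr7:143461281-143461456, had the smallest width of the Nan/+ list, 176 bp, and lay 222 bp beyond the higher-coordinate end of the gene. Which end of Cdkn1c holds its start was not determined here, as it has no promoter entry. The nearest WT region to the gene was 87.1 kb away.

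The INK4 genes differed from each other. Cdkn2d (chr9:21288459-21291421), encoding p19, had 2 regions in each list and, like Cdkn1a with its 1 and 1, a partner for every one of them. Over its start the WT region, chr9:21290907-21291840, was 934 bp wide and contained the whole Nan/+ region, chr9:21291049-21291805, of 757 bp. At the opposite end the WT region, chr9:21287766-21288454, of 689 bp, likewise contained the Nan/+ region, chr9:21287826-21288313, of 488 bp. This pair lay over the start of the neighbouring gene Kri1, whose end was 0.141 kb from the WT centre against 349 bp for the end of Cdkn2d.

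Cdkn2c (chr4:109660876-109666756), encoding p18, had 2 WT regions and 0 in Nan/+. The WT region over the upstream start, chr4:109666561-109667703, was the widest WT region at any member, at 1143 bp against a median of 396 bp for the whole WT list, and it covered all 250 printed bases. The other WT region, chr4:109676216-109677000, of 785 bp, had its centre 9.85 kb from Cdkn2c and 0.019 kb from an end of Faf1, whose start it covered. The nearest Nan/+ region to the gene was 34.1 kb away. The other WT regions without a Nan/+ partner at the 10 genes were 158 to 894 bp wide.

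**Figure D2:**
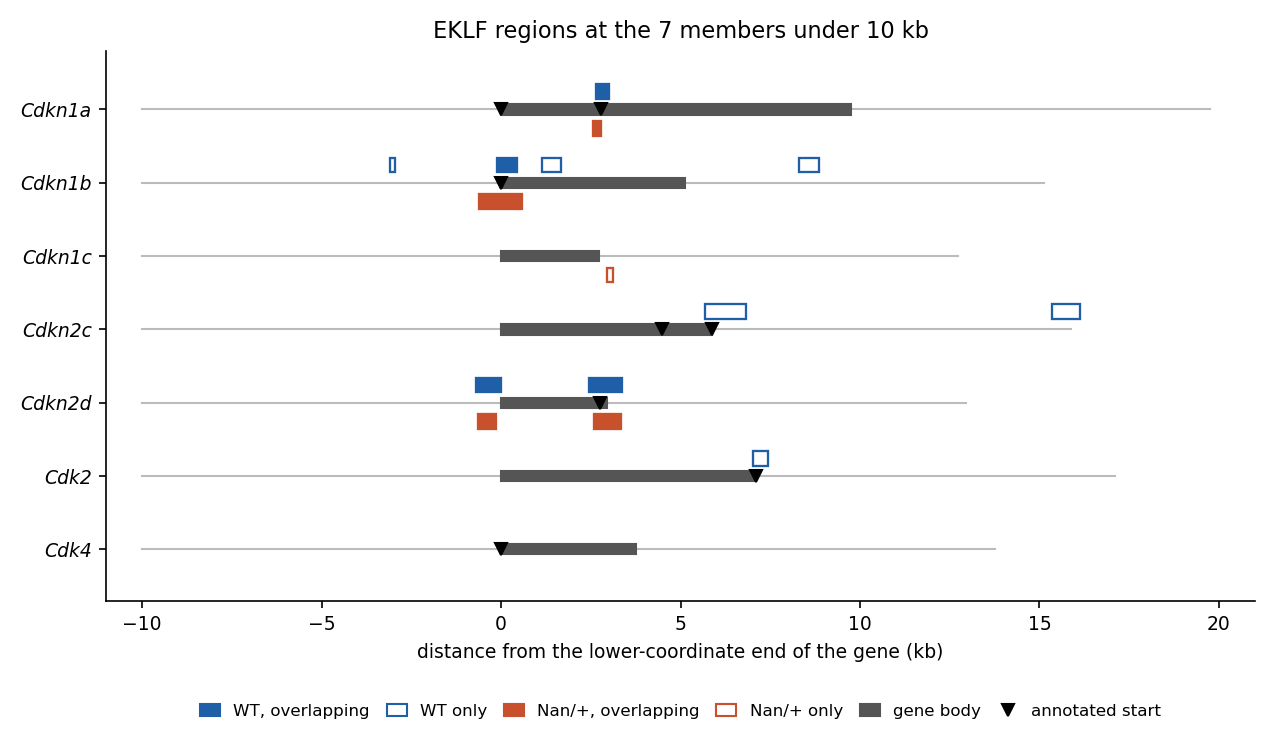
EKLF regions at the 7 members under 10 kb in length, drawn to scale against the distance in kb from the lower-coordinate end of each gene, with WT regions above and Nan/+ regions below the gene body, filled where they overlap the other list, thin lines spanning the gene with its 10 kb flanks and triangles at annotated starts. WT boxes stand at a start triangle in Cdkn1a, Cdkn1b, Cdkn2c, Cdkn2d and Cdk2, and Nan/+ boxes join them in Cdkn1a, Cdkn1b and Cdkn2d.

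The D cyclins stood far apart. Ccnd3 (chr17:47505051-47599689, 94.6 kb), the cyclin that supports the last divisions of red cell precursors, had 10 WT regions and 5 Nan/+ regions, all inside the gene. Over all protein-coding genes 37, or 0.172%, had at least 10 WT regions, and 3.03% had at least 5 Nan/+ regions. These shares were not matched for length, and the median length over all genes is 17.4 kb. Ccnd3 held 50.0% of the 20 WT regions and 38.5% of the 13 Nan/+ regions at the members. An excess of WT over Nan/+ regions of 5 or more was found at 40 genes, Ccnd3 included. The WT regions covered 4723 bp in all and the Nan/+ regions 1164 bp, with median widths of 443.5 and 221 bp.

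Of the 10 WT regions of Ccnd3, 1 overlapped a Nan/+ region, or 10.0% (exact Clopper-Pearson 95% interval 0.253 to 44.5, for counting error only), an interval that contains the 24.5% of the whole WT list. The shared WT region chr17:47511151-47511434, of 284 bp, lay 6.24 kb into the gene and shared 157 bp with the Nan/+ region chr17:47511278-47511453, of 176 bp. A further Nan/+ region, chr17:47511750-47511970, lay 315 bp beyond the edge of that WT region. At chr17:47523162-47523690 a WT region of 529 bp and the Nan/+ region chr17:47522816-47523146 of 331 bp were separated by 15 bp, so that this pair is adjacent and counts as not shared under the rule of 1 bp. The Nan/+ region farthest from the first start lay 54.1 kb into the gene, and 5 WT regions lay beyond it. One of these, chr17:47593346-47593639, of 294 bp, covered the start of the shorter Ccnd3 transcripts, 88.4 kb from the first start, and its nearest Nan/+ region was 34.1 kb away. The last WT region, chr17:47598059-47598708, of 650 bp, lay 1.31 kb inside the far end of Ccnd3, and its centre was 0.948 kb from an end of the neighbouring gene Bysl. The first start of Ccnd3 had no region in either list.

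Ccnd2 (chr6:127125162-127152188), the other D cyclin examined, had 0 WT regions and 1 Nan/+ region of the smallest width, chr6:127152533-127152708, 345 bp beyond the higher-coordinate end of the gene. Which end of Ccnd2 holds its start was likewise not determined. The nearest WT region to Ccnd2 was 301 kb away, the largest such distance among the 10 genes.

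Of the 3 kinases, 1 had a WT region and 1 a Nan/+ region, near the shares of 33.5% and 37.5% over all genes. Cdk2 (chr10:128697938-128705051), the S-phase kinase, had 1 WT region of 396 bp over its start, chr10:128704970-128705365, and 0 in Nan/+, the nearest of which was 97.8 kb away. The centre of this region also lay in Pmel, a pigment cell gene whose annotated span (chr10:128695888-128720238) contains Cdk2, and the start of Cdk2 was 116 bp from the centre. Cdk4 (chr10:127063535-127067288), the partner of D cyclins, had no region within 10 kb, and the nearest were 75.7 kb away in WT and 27.3 kb in Nan/+. Cdk6 (chr5:3341004-3531008, 190.0 kb), the other partner of D cyclins and the longest of these genes, had 0 WT and 2 Nan/+ regions. These were chr5:3427247-3427422, of 176 bp, and chr5:3516891-3517128, of 238 bp, both inside the gene and 83.4 and 173 kb from its annotated start. Among genes over 150 kb a WT region was present in 29.2% and a Nan/+ region in 52.2%, with a median of 1 Nan/+ region.

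**Figure D3:**
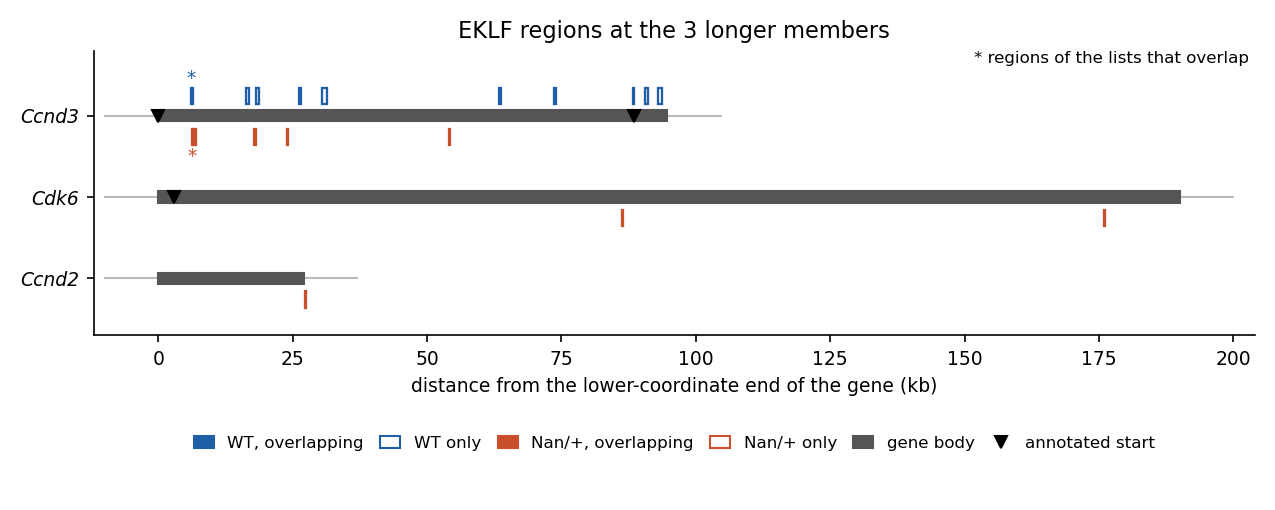
EKLF regions at Ccnd3, Cdk6 and Ccnd2 against the distance in kb from the lower-coordinate end of each gene, with WT regions above and Nan/+ regions below, asterisks on the overlapping pair, and narrow regions appearing as lines at this scale. WT regions of Ccnd3 have their centres from 6.24 to 93.3 kb, with none between 30.9 and 63.5 kb. Of these, 5 lie beyond the last Nan/+ region at 54.1 kb, while Cdk6 and Ccnd2 have Nan/+ regions alone.

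Longer genes have more room for regions, so the short members were set beside genes of like length. Of the 7 members under 10 kb, 5 had a WT region and 4 a Nan/+ region, against 24.6% and 24.0% of the 7674 protein-coding genes of that length. All 5 inhibitor genes are under 10 kb, and 4 had a WT region and 4 a Nan/+ region. The shares were 24.6% and 24.0% of genes of that length, and 33.5% and 37.5% of all protein-coding genes. An overlapping pair was at 3 of the 5, against 13.3% of all protein-coding genes, a share not matched for length. None of the 3 kinases had regions in both lists, against 23.5% of all genes. Differences between the roles were not tested.

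Counted by region, 5 of the 20 WT regions at the members overlapped a Nan/+ region, or 25.0% (exact Clopper-Pearson 95% interval 8.66 to 49.1), against 24.5% of the whole WT list. In the other direction 5 of the 13 Nan/+ regions overlapped a WT region, or 38.5% (13.9 to 68.4), against 14.7% of the whole Nan/+ list. Each whole-list share lay within the interval beside it. The intervals cover counting error only, and regions of 1 gene are not independent. Without Ccnd3, 4 of 10 WT regions (40.0%) and 4 of 8 Nan/+ regions (50.0%) overlapped.

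Widths of the Nan/+ calls were compared next. Of the 13 Nan/+ regions, 5 had the smallest width of that list, 176 bp, or 38.5%, against 54.5% of the whole Nan/+ list. These 5 were the single regions of Cdkn1c and Ccnd2, 1 of the 2 at Cdk6 and 2 of the 5 at Ccnd3. Among genes with a region in Nan/+ alone, Cdk6 was therefore the 1 gene left when regions of the smallest width were set aside, 1 of 10 members against 6.98% of all genes under the same filter. The Nan/+ regions with a WT partner had a median width of 488 bp, and those without one 198.5 bp, with none above 331 bp. The ranges overlapped, since the partnered Nan/+ regions at Ccnd3 and Cdkn1a were 176 and 221 bp wide. Only those at Cdkn1b and Cdkn2d were wider than 331 bp. For WT regions the medians with and without a partner were 552 and 542 bp. The lists were called with different region sizes, so widths are compared within a list only, and a wide region also overlaps more readily.

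**Figure D4:**
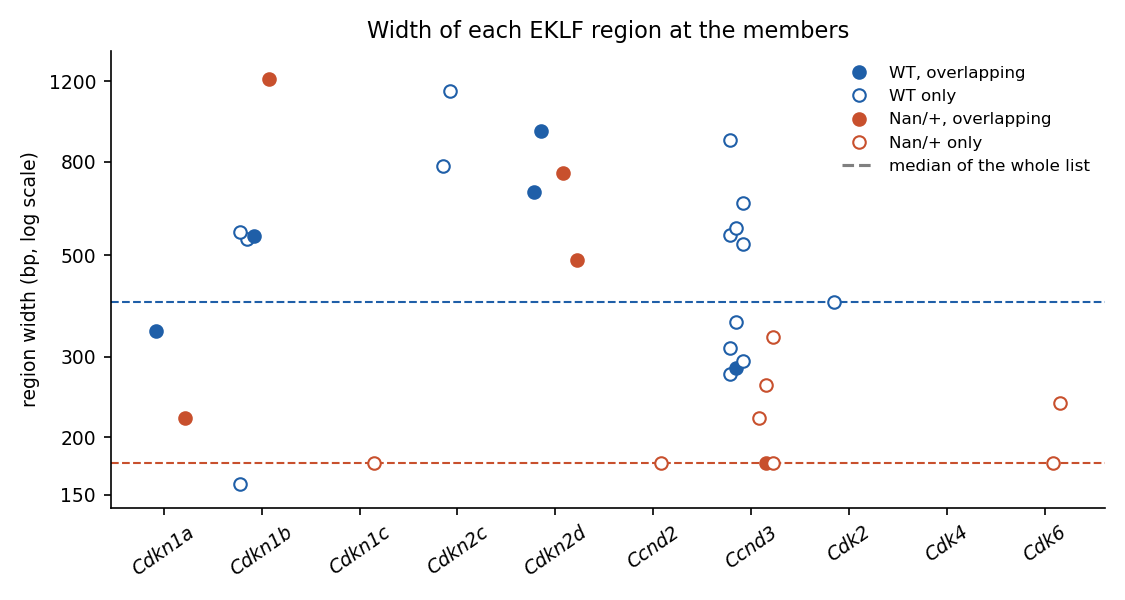
Width in bp (log scale) of each EKLF region at the members, WT in blue and Nan/+ in red, filled where the region overlaps the other list, with dashed lines at the median of the whole list, 396 bp in WT and 176 bp in Nan/+, and points spread sideways to be seen apart. The filled Nan/+ points of Cdkn1b and Cdkn2d are the widest Nan/+ regions, at 488 to 1213 bp. The open ones lie at 176 to 331 bp, as do the filled Nan/+ points of Cdkn1a and Ccnd3.

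Other genes of the G1 and S-phase machinery and its regulators were counted in the same way, 33 in all. Of these, 19 had a WT region, 21 a Nan/+ region and 14 both, against 33.5%, 37.5% and 23.5% of all protein-coding genes. Regions in WT alone were found at 5, in Nan/+ alone at 7 and in neither list at 7, against 10.1%, 14.1% and 52.4%. Tfdp2, the dimerisation partner of E2F factors, had the most, 11 WT and 10 Nan/+ regions, of which 1 pair overlapped. E2f2 and E2f4 had 8 and 6 WT regions with 1 Nan/+ region each, an excess of WT regions like that at Ccnd3. Mnat1, a subunit of the CDK-activating kinase, had 0 WT and 9 Nan/+ regions, of which 2 were wider than the smallest width. Fbxw7, encoding a ubiquitin ligase subunit that marks cyclin E for destruction, had 1 and 4, with 1 pair overlapping. E2f3 had 3 in each list, with 2 pairs overlapping. Ccnd1, the remaining D cyclin, had 0 in both lists, as Cdk4 did. Ccne1, encoding the cyclin E1 partner of CDK2, had 1 region in each list, which overlapped and lay over its start. Cdk1, the mitotic kinase, had 0 and 2, with a Nan/+ region over its start. Of the 11 E2F and retinoblastoma family genes among the 33, 6 had a WT region, 8 a Nan/+ region and 3 an overlapping pair. The counts were 6, 7 and 4 for the 10 members, and this difference was not tested. Shares over all protein-coding genes were 33.5%, 37.5% and 13.3%.

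Of the 25 among these 33 genes with a promoter entry, 11 had a WT region over a start and 8 a Nan/+ region. Among the 8 members with an entry the counts were 6 and 3, and the difference was not tested. Over all protein-coding genes with an entry the shares were 20.4% and 13.0%. Of 9 erythroid marker genes, 9 had a region in both lists, against 23.5% of all protein-coding genes. EKLF is itself an erythroid factor, so this count does not check the tissue. Hepatoblast markers had a region at 2 of 5 genes in each list, and macrophage markers at 1 of 3 in each. Of 3 each, endothelial markers had one at 0 (WT) and 1 (Nan/+) and megakaryocyte markers at 1 and 2. Over all protein-coding genes the shares were 33.5% (WT) and 37.5% (Nan/+), and these small counts were not tested against them. Region lists do not measure the share of each cell type, so the part of cell composition in the differences at the members was not tested.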

How the data were processed

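EKLF ChIP was analysed from 1 deposited region list per genotype, each made from 3 libraries. The other 37 of the 43 samples were not analysed here. HOMER was run by the authors on mm10, per the file headers, and regions were called at a q of 0.01 and a fold of 4, with a DESeq2 step (false discovery rate 0.01, log2 fold 2) against 2 distinct input libraries in 3 places. Per the file headers, region size and minimum distance were 125 and 250 bp for WT, and 175 and 300 bp for Nan/+, so widths do not compare between lists. Tools in the submitters' processing notes are Bowtie2 2.1, SAMtools 1.1, bcl2fastq 2.17 and deepTools 3.5. The score deposited by the authors is 1 in every row and was not used. Per the file headers, ChIP libraries held 72023512 to 103170594 tags.

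Positions are counted from 1. Genes came from RefSeq GRCm38.p6: of 21900 protein-coding genes, 113 on alternate or unplaced sequence and 266 on Y and the mitochondrial chromosome were left out. The gene table gives no exons. Overlaps were counted in Python 3.11.15, checked against bedtools 2.31.1 and tested on simulated regions. No test between genotypes was planned, because the lists hold no replicate values. All 10 members were named, with up to 6 of the 33 other genes by number of regions, plus Ccnd1, Ccne1 and Cdk1. Lockd, and the genes of the closing observations, were chosen after their values were seen. Members and lists were chosen with earlier results of these data known.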

Additional observations from a re-analysis of the deposited data

How the results depend on the processing

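No paired analysis was possible because the deposited lists pool the replicates, and for the same reason none could be left out. Of 199 alternative values, 149 stayed within 1.5 times the reported count or, for the overlap share, within its wide interval of 8.66 to 49.1%. For the main results 43 of 59 stayed, and for counts at single genes 106 of 140. Some values could not move, such as WT counts where the Nan/+ list alone was filtered, or counts of 0 under a stricter filter. The tally therefore does not measure robustness. That share ran from 15.0% with a reciprocal overlap of 50% to 40.0% without Ccnd3, and edges within 50 bp, added with the Ccnd3 pair known, gave 30.0%. The cause of the changes was not tested beyond what each setting does by construction. With the gene body alone, genes with a Nan/+ region numbered 3 (23.5% of all genes), Nan/+ alone 1 (13.0%), and Nan/+ regions 8, since several regions sit just outside an annotated end. Cdkn2c and Cdk2 then had 0 WT regions, and Cdkn1b and Cdkn2d 0 Nan/+ regions. With 50 kb flanks, WT and Nan/+ regions numbered 34 and 26 and WT-alone genes 1 (7.54% of all genes). With the widest 50% of each list, WT-alone genes numbered 1 (8.74%), WT regions 12 and Nan/+ regions 8. The WT regions of Cdkn1a and Cdk2 were lost there, which left Cdkn1a with a region in Nan/+ alone and Cdk2 with 0. Nan/+ regions wider than the smallest width, and equal list lengths by width, each left 8 Nan/+ regions and 1 gene, Cdk6, in Nan/+ alone (6.98% and 8.68% of all genes). Equal lengths and the widest 50% keep Nan/+ regions tied at 176 bp by position. Without Ccnd3, an alternative chosen after seeing the data, there were 10 WT and 8 Nan/+ regions. The motif CCNCACCC was in 2 member windows, against 10 for CCNCNCCC. Depth limits what a missing call means, since tags per region were not used here.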

Other observations

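Further members of the wider list, chosen after their values were seen and not tested, are given as values. Cks1b, encoding a CDK-binding subunit, had 3 WT regions, with a WT region over its start, and 0 in Nan/+. Myc and Cdkn2b each had 1 WT region and 0 in Nan/+, and Cdkn2a, the remaining INK4 gene, had 0 in both. Rb1, encoding the retinoblastoma protein, had 0 WT and 5 Nan/+ regions, of which 1 was wider than the smallest width. Skp2, encoding the ubiquitin ligase subunit that removes p27, had 2 regions in each list with 1 pair overlapping, and both lists had a region over its start. Trp53, which encodes p53, had 2 WT and 3 Nan/+ regions with 1 overlapping pair.

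Several neighbours of the members shared or carried their own regions. Bysl, next to the far end of Ccnd3, had 3 WT regions and 0 in Nan/+ within 10 kb. All 3 WT regions were also assigned to Ccnd3. Kri1, whose start lies beside Cdkn2d, had 4 WT and 5 Nan/+ regions, and Faf1, whose start lies near Cdkn2c, had 3 and 11. With 50 kb flanks Cdkn2d had 9 WT and 8 Nan/+ regions, whereas Cdkn2c had 1 Nan/+ region and Cdk4 had 0 WT and 1 Nan/+ region.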
